A study of Mus musculus with 6 samples.

Results

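The genes described here are the early response factors Nr4a1, Nr4a2 and Nr4a3, which encode orphan nuclear receptors, and Egr1, Egr2 and Egr3, which encode zinc-finger transcription factors. Their chromatin was read from ATAC-seq peaks of mouse regulatory T cells (Treg cells), a method in which a transposase cuts open DNA. A peak was taken as a member when its midpoint lay inside 1 of the 6 genes. A peak between genes was a member when the nearest protein-coding gene within 100 kb was 1 of the 6. The rule found 23 of the 36182 peaks of the KO list and 26 of the 38258 peaks of the WT list, 49 in all. The rule used position alone and no measured value.

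The KO samples came from C57BL/6 mice labelled Bcl11b f/f Foxp3-IRES-YFP-Cre, and the WT samples from C57BL/6 mice labelled Bcl11b w/w Foxp3-IRES-YFP-Cre. Both groups therefore carry the same YFP and Cre construct at Foxp3, and Bcl11b, a zinc-finger factor of T cells, is to be lost in Foxp3-expressing cells of the KO mice alone. CD4+YFP+ cells were sorted from spleen and draining lymph nodes, with 100000 cells lysed per sample and 3 samples per group. The age of the mice is not given in the sources used here. Each group has 1 list of peaks on build mm10 for its 3 samples together. No value per sample and no read count stands in the lists, so the depth is unknown, no spread between samples could be measured, and no difference below was tested. A peak that overlapped a peak of the other list by at least 1 bp is called shared. Any other peak is called KO-only or WT-only, which says that no overlapping peak was listed for the other group and not that the site was closed there. Fewer cells with an open site and a site less open in each cell cannot be told apart in such lists. The genes that mark Treg cells, Foxp3, Il2ra, Ctla4 and Ikzf2, together had 37 KO and 34 WT peaks. Ikzf2 had 17 KO and 14 WT peaks, while Ctla4 had 13, Il2ra 6 and Foxp3 1 in each list. The T cell genes Cd3e, Cd3g and Cd4 together had 4 in each list. Of 15 markers of B, myeloid, CD8 T, NK and erythroid cells, 8 had no peak in either list, among them Csf1r, Cd8a and Ncr1. Others had peaks, such as Klrb1c of NK cells with 5 KO and 6 WT peaks, Pax5 of B cells with 4 KO and 2 WT peaks, Cd8b1 with 1 KO and 2 WT peaks, and Gata1 of erythroid cells with 0 KO and 2 WT peaks. The 15 markers together had 12 KO and 15 WT peaks, and their part in the results below was not tested.

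Nr4a and Egr genes are transcribed within minutes to hours of T cell receptor engagement, without new protein synthesis, and their level follows the strength of that signal. The receptor acts on them through calcium, MAP kinase and cAMP-responsive pathways, which end on factors such as MEF2, SRF with its ETS partners, and CREB. In Treg cells the Nr4a receptors are known to help set and keep Foxp3 expression, and Egr2 and Egr3 are known to restrain T cell activation and to induce genes of anergy.

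The promoters of the Nr4a genes show what the peaks at their starts cover. They are given as RefSeq has them (assembly GRCm38.p6, whose coordinates mm10 shares), 300 bases from 250 before the transcription start, 5′ to 3′ on the strand of the gene. Capitals mark the TGACG core of the cAMP response element, the site that CREB factors bind, found on either strand (on the opposite strand it reads CGTCA). The windows lie at chr15:101266596-101266895 on the plus strand for Nr4a1, at chr2:57123954-57124253 on the minus strand for Nr4a2 and at chr4:48045055-48045354 on the plus strand for Nr4a3.
Nr4a1: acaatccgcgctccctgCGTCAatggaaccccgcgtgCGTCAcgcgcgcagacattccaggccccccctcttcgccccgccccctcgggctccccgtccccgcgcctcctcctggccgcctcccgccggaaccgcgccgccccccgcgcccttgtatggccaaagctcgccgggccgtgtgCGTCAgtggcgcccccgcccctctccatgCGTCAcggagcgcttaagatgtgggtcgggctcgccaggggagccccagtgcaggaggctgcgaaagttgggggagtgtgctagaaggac
Nr4a2: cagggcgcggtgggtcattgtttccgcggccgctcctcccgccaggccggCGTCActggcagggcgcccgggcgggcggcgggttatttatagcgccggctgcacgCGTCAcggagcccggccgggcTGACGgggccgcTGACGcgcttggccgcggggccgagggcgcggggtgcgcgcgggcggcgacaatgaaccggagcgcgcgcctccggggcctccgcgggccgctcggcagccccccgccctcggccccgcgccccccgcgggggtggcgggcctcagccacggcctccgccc
Nr4a3: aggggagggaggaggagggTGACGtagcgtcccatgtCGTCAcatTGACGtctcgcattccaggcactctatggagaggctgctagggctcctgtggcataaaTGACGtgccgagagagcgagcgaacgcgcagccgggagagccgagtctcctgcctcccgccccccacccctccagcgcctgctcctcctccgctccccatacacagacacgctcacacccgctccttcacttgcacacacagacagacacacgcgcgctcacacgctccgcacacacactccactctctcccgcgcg

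Each of the Nr4a windows held 4 such cores. Among 32817 promoter windows of this length 20.8% held at least 1 core and 0.232% (76 windows) held 4 or more. The core contains a CpG, and the Nr4a windows are rich in them, with 35 at Nr4a1, 52 at Nr4a2 and 26 at Nr4a3 against a median of 7 over all windows. Of the 5536 windows with at least 26 CpGs, 0.921% held 4 or more cores. The complete palindrome TGACGTCA was in none of the Nr4a windows and in 1.79% of all windows. The Nr4a monomer element AAAGGTCA, which the receptors themselves bind, was in none of them either and in 1.51% of all windows. Of the Egr elements, GCGGGGGCG was in the Nr4a1 window alone among them and in 2.91% of all windows. The other form, GCGTGGGCG, was in none of the Nr4a windows and in 0.612% of all windows. The MEF2 box was also in none of the Nr4a windows and in 0.558% of all windows. These matches are letters in a window and do not show that a factor was bound.

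**Figure D1:**
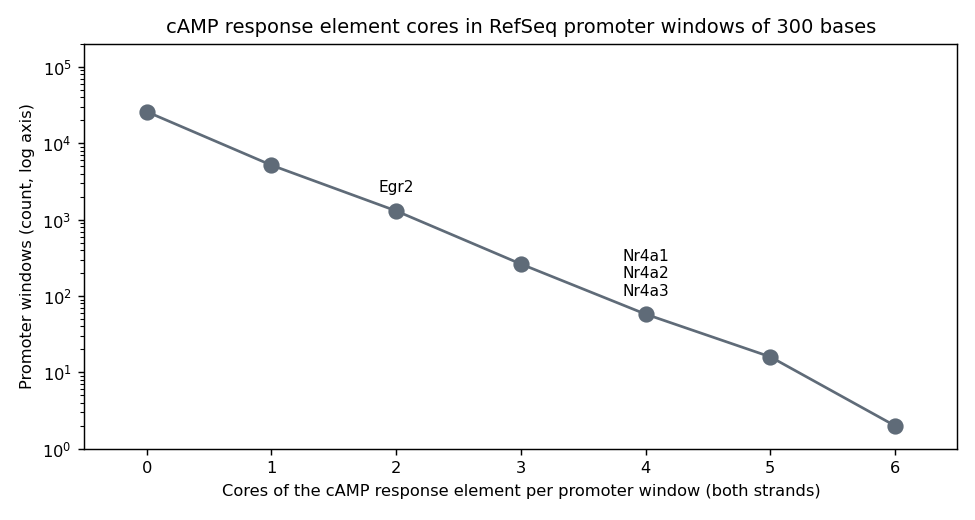
Number of promoter windows (vertical log axis, count) by the number of cores of the cAMP response element they hold on both strands (horizontal axis), over 32817 RefSeq windows of 300 bases. The Nr4a1, Nr4a2 and Nr4a3 windows sit at 4 cores; of the 5 Egr2 windows, those that hold any core sit at 2.

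At Egr2 the peak of both lists holds an annotated start at 67537566. The window of that start lies at chr10:67537316-67537615 on the plus strand and held no TGACG core. Its capitals mark the CArG box, to which SRF binds, and the ETS core CGGAA or its complement TTCCG.
Egr2: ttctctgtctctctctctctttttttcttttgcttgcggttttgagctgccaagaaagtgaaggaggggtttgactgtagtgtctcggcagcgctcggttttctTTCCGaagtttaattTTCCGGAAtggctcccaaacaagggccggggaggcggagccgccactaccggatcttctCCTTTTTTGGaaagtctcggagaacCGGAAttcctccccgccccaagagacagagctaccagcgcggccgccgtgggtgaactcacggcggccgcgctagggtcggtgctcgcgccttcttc

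This Egr2 window held 1 CArG box, which was found in 1.63% of all windows, and 4 ETS cores, a number that 1.19% of windows reached. An ETS core and its complement overlap in 1 palindrome, and the NFAT core TTTCC overlaps ETS cores in this window. The KO peak at Egr2 begins at base 207 of the window and so lies beyond the CArG box at bases 179 to 188. The WT peak begins at base 165 and covers the box. The peaks overlapped by 177 bp and their midpoints lay 29 bp apart, against a median of 31 bp over all shared peaks. Nearly all KO peaks are 193 bp wide against 219 bp for nearly all WT peaks. With such shifts and widths, an edge differs between the lists at shared sites in general. The 3 Egr2 windows with later starts, which overlap each other, each held 2 TGACG cores and 1 CArG box, all of them beyond the ends of both peaks. The promoter table matched 4 of the 6 genes.

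Most peaks of the Nr4a and Egr genes were shared. Of the 23 KO peaks, 20 (87.0%, exact Clopper-Pearson 95% interval 66.4 to 97.2%) overlapped a WT peak, and of the 26 WT peaks, 20 (76.9%, 56.4 to 91.0%) overlapped a KO peak. The intervals cover counting error only, and peaks of a gene are not independent. Over the whole lists the shared shares were 74.6% for KO and 70.5% for WT, both inside these intervals. The 3 KO-only peaks stood at Nr4a1 and Egr3, and over the whole list 25.4% of KO peaks were KO-only. The 6 WT-only peaks stood at Nr4a3, Egr2, Nr4a1 and Egr3, and over the whole list 29.5% of WT peaks were WT-only. All 9 genotype-specific peaks lay outside protein-coding genes, 2 of them inside noncoding genes. Over the whole lists 40.0% of KO-only and 39.2% of WT-only peaks in or within 100 kb of a protein-coding gene lay outside one. The 8 KO and 8 WT peaks inside the bodies of the 6 genes were all shared, where over all protein-coding genes 24.9% of KO peaks in gene bodies were KO-only and 28.5% of WT peaks there were WT-only. Of the 15 KO peaks outside the 6 gene bodies 3 were KO-only, and of the 18 WT peaks there 6 were WT-only, against 24.6% and 28.2% of all KO and all WT peaks so placed around protein-coding genes. None of these differences from the whole lists was tested. A surplus of at least 2 KO-only peaks was found at none of the 6 genes, and at 5.21% of the 14527 protein-coding genes with a peak. A surplus of at least 2 WT-only peaks was found at Nr4a3 and Egr2, and at 7.9% of all genes with a peak. Nr4a3 and Egr2 had 7 WT peaks each, against a median of 2 over all genes with a peak. A gene with more peaks can reach such a surplus more easily, and genes of like peak number were not compared.

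**Figure D2:**
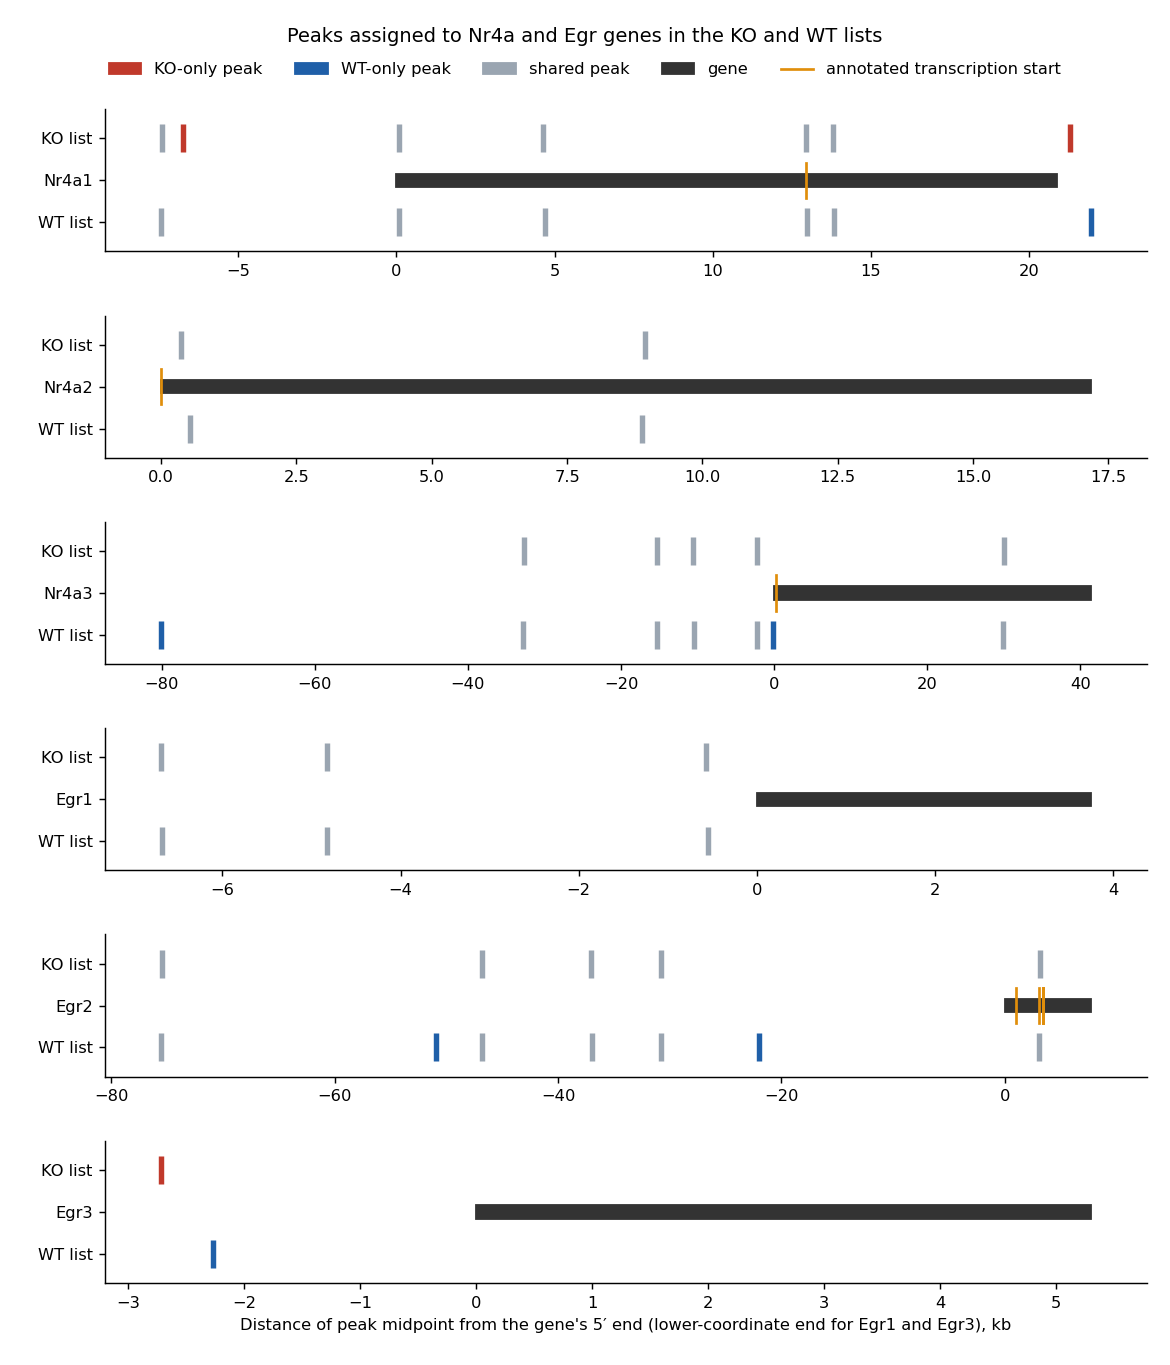
Position of every peak of the 6 genes (midpoint, kb from the 5′ end of the gene; from the lower-coordinate end for Egr1 and Egr3), with KO peaks above and WT peaks below each gene. Grey peaks are shared, red peaks KO-only and blue peaks WT-only; the genotype-specific peaks all fall outside the gene bodies.

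**Figure D3:**
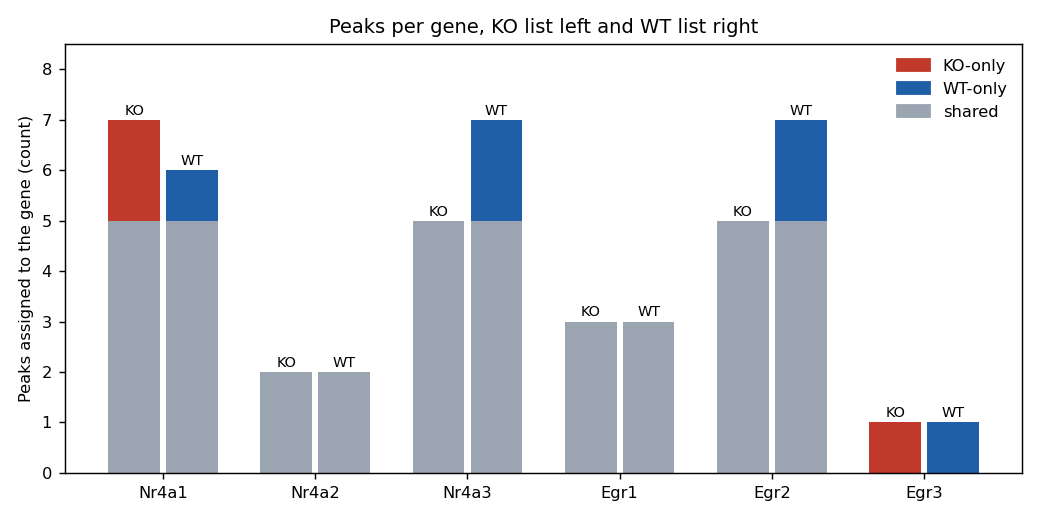
Peaks assigned to each gene (count), KO list on the left and WT list on the right of each pair. The shared part is of equal height in both lists at every gene, from 0 at Egr3 to 5 at Nr4a1, Nr4a3 and Egr2.

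A WT-only peak stood at the start of Nr4a3 (NOR-1), which spans chr4:48045078-48086447. It lay at chr4:48044857-48045075, its midpoint 0.112 kb before the gene and its end 230 bp before the annotated transcription start at 48045305. The nearest KO peak ended 1.92 kb before it. The WT peak reached bases 1 to 21 of the promoter window printed above and so stopped inside the first TGACG core, at bases 20 to 24. No KO peak touched the window. Start peaks were counted by midpoint within 1 kb of an annotated start. Of the 9411 genes with one in either list, 3.08% had it in the KO list alone, and none of the Nr4a and Egr genes in the promoter table did. In the WT list alone it was found at 3.53% of them, and Nr4a3 was the only such gene among the Nr4a and Egr genes in the table.

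This WT-only peak stood early in its list. HOMER, named in the submitters' processing notes, numbers peaks within a chromosome, and the low numbers are taken here as the stronger peaks, which is inferred and not stated. The Nr4a3 start peak has number 84, which places it at percentile 3.6 of the chromosome 4 peaks of the WT list. By its row in the whole WT list it stood at percentile 5.79, past the first 5%. Among WT peaks in the first 5% of their chromosome 2.79% (53 of 1902) were WT-only. Of all 11283 WT-only peaks, 37 (0.328%) stood as early or earlier within their chromosome, and 66 (0.585%) did so by row. The Nr4a3 start peak was singled out as the earliest WT-only peak of the Nr4a and Egr genes, so these shares are a description and no measure of chance. Peaks had been removed from both lists before deposit, as gaps in the numbers show. The first missing number on chromosome 4 was 212 in the KO list and 238 in the WT list, and whether a KO peak at the Nr4a3 start was among those removed was not tested.

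**Figure D4:**
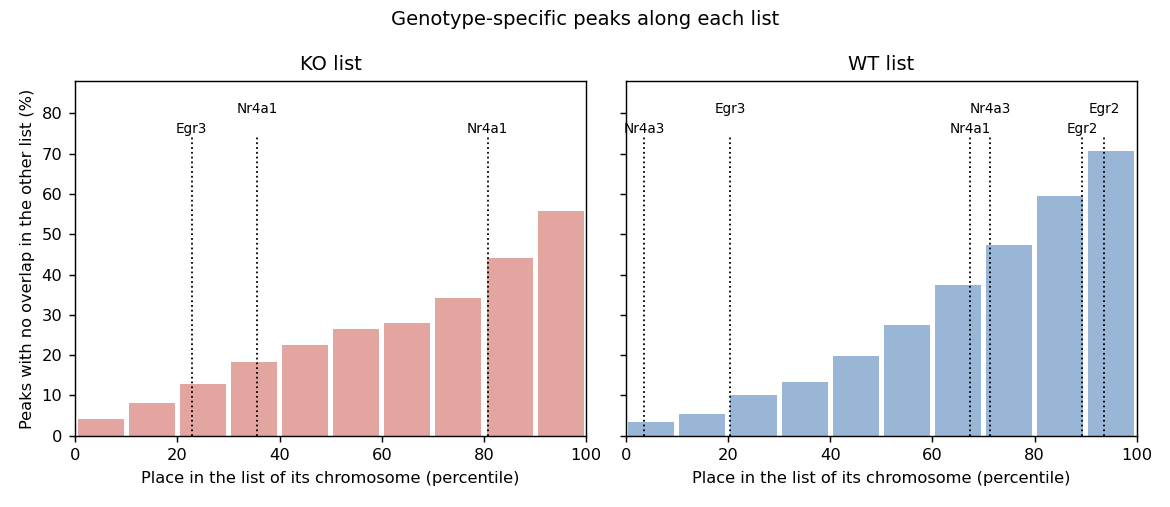
Percentage of peaks with no overlap in the other list (vertical axis) in each 10% of the list, by place within the chromosome (percentile, horizontal axis), KO list left and WT list right. Dotted lines mark the genotype-specific peaks of the Nr4a and Egr genes; in the WT list the Nr4a3 start peak falls in the first 10%, where 3.49% of peaks were WT-only, and the Egr2 peaks fall near the end, where that share was 59.6 and 70.7%.

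The other peaks of Nr4a3 were shared, except 1. A pair that overlapped by 185 bp stood 2.24 kb (KO list, chr4:48042744-48042936) and 2.26 kb (WT list, chr4:48042710-48042928) before the gene, at percentile 2.44 in the KO list and 1.72 in the WT list. It was the earliest peak of Nr4a3 in both lists, so both lists held an early peak just upstream of the gene, and the WT list alone held another at the start. Shared pairs also lay 10.6, 15.3 and 32.7 kb before the gene in the KO list, and 1 shared pair lay in the gene body (KO list, chr4:48074946-48075138). The remaining WT-only peak, at chr4:47964879-47965097, stood 80.1 kb away in the noncoding gene Gm52735 at percentile 71.3, and its nearest KO peak was 47.2 kb away.

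Nr4a1 (Nur77), the receptor whose reporter is widely used to read T cell receptor signals, had the most KO peaks of the 6 genes, 7 against 6 in the WT list, with 5 of each shared. The gene spans chr15:101253902-101274795, and its annotated start at 101266846 lies inside that span. The peak of both lists held this start (KO list, chr15:101266759-101266951; WT list, chr15:101266779-101266997). The KO peak covered bases 164 to 300 of the printed window with 2 of its 4 TGACG cores, and the WT peak bases 184 to 300 with 1 of them. The WT peak began inside another core, at bases 182 to 186. As said for Egr2, an edge differs between the lists at shared sites in general. A second shared pair lay just downstream of the start, and others at the lower end of the gene and inside it. Upstream of the gene a shared pair stood 7.42 kb (KO list) and 7.44 kb (WT list) away at percentile 2.1 in the KO list and 2.94 in the WT list, the earliest of the Nr4a1 peaks.

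The genotype-specific peaks of Nr4a1 were all neighbours of a peak in the other list. The KO-only peak at chr15:101247043-101247235 lay 474 bp from the nearest WT peak, the shared one 7.44 kb upstream of the gene. Beyond the upper end of the gene the KO-only peak at chr15:101275107-101275299 and the WT-only peak at chr15:101275746-101275964 were 446 bp apart. They stood at percentile 80.7 of the KO list and 67.4 of the WT list, late in both lists.

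Egr3, which with Egr2 induces genes of T cell anergy, had 1 peak in each list and they did not overlap. The KO-only peak lay at chr14:70074506-70074698, 2.71 kb from the lower end of the gene, and the WT-only peak at chr14:70074941-70075159, 2.27 kb from it. They were 242 bp apart and stood at like places, percentile 22.8 in the KO list and 20.5 in the WT list. Thus all 3 KO-only peaks of the Nr4a and Egr genes had a WT peak within 500 bp, as had 27.9% of all KO-only peaks. Of the 6 WT-only peaks 2 had a KO peak within 500 bp, against 19.8% of all WT-only peaks. With so few peaks these counts are a description. No peak lay inside Egr3 (chr14:70077317-70082613) in either list.

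Egr2 (Krox-20), at chr10:67534469-67542188, had 5 KO and 7 WT peaks, and its surplus in the WT list lay far from the gene. Its peak over the start (KO list, chr10:67537522-67537714; WT list, chr10:67537480-67537698) was among the earliest of all peaks described here, at percentile 3.73 in the KO list and 0.916 in the WT list. The space below Egr2 is wide, with 249 kb to the next protein-coding gene, Nrbf2, and held 4 shared pairs between 30.8 and 75.5 kb from the gene in the KO list. The WT-only peaks lay there too, at chr10:67483475-67483693 and chr10:67512384-67512602, 50.9 and 22.0 kb away. They stood at percentiles 93.6 and 89.3, among the last of the WT list, and their nearest KO peaks were 3.91 and 8.63 kb away. The noncoding gene Gm32255 held the nearer of them and both shared pairs at 30.8 and 37.0 kb (KO list).

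Egr1, a zinc-finger factor and an SRF target, and Nr4a2 (Nurr1) had shared peaks alone. Egr1 (chr18:34861207-34864956) had 3 pairs, all below the gene, which overlapped by 179 to 193 bp. The nearest stood 0.571 kb (KO list) and 0.544 kb (WT list) from the gene, at percentile 13.9 in the KO list and 12.1 in the WT list, and the others 4.83 and 6.69 kb away in the KO list. Nr4a2 (chr2:57106830-57124003, minus strand) had 2 pairs, both in the gene body. The pair near its start (KO list, chr2:57123542-57123734; WT list, chr2:57123355-57123573) overlapped by 32 bp, the smallest overlap among the 20 pairs, whose median was 177 bp. The peak over the printed Nr4a2 promoter (KO list, chr2:57124071-57124263; WT list, chr2:57124124-57124342) was also shared, but its midpoint lay in the predicted gene LOC105244150, so it is not counted among the 49. The KO peak there covered all 4 TGACG cores of the window and the WT peak 2 of them. The WT peak ended at base 130 of the window, inside another core at bases 128 to 132, so these counts too rest on peak edges.

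The places of the shared pairs in the lists are given side by side. Over the 20 pairs the median percentile was 30.3 in the KO list and 19.2 in the WT list. Over all 26975 shared WT peaks and their KO partners it was 42.1 in the KO list and 38.2 in the WT list. The median of the difference per pair (KO minus WT) was 2.56 points for all pairs and 4.23 points for the Nr4a and Egr pairs. The 25% and 75% quartiles over all pairs were -3.33 and 10.73 points. Pairs beyond the upper of these values were found at Nr4a1, Nr4a3 and Egr2, and pairs beyond the lower at Nr4a2 and Egr1. The start peak of Nr4a1 stood at percentile 19.7 in the KO list and 7.7 in the WT list, and the peak at the lower end of Nr4a1 at 29.8 in the KO list and 12.1 in the WT list. At Nr4a3 the pair 32.7 kb upstream stood at 36.0 in the KO list and 13.1 in the WT list, the widest difference of the 20. At Nr4a2 the pair near the start stood at 36.8 in the KO list and 51.9 in the WT list, a difference of -15.03 points and the lowest of the 20, and the other Nr4a2 pair differed by 4.87 points. At Egr1 the 3 pairs differed (KO minus WT) by -8.11, -0.76 and 1.78 points. The lists differ in length and a place is no peak height, so these values do not show that accessibility changed.

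**Figure D5:**
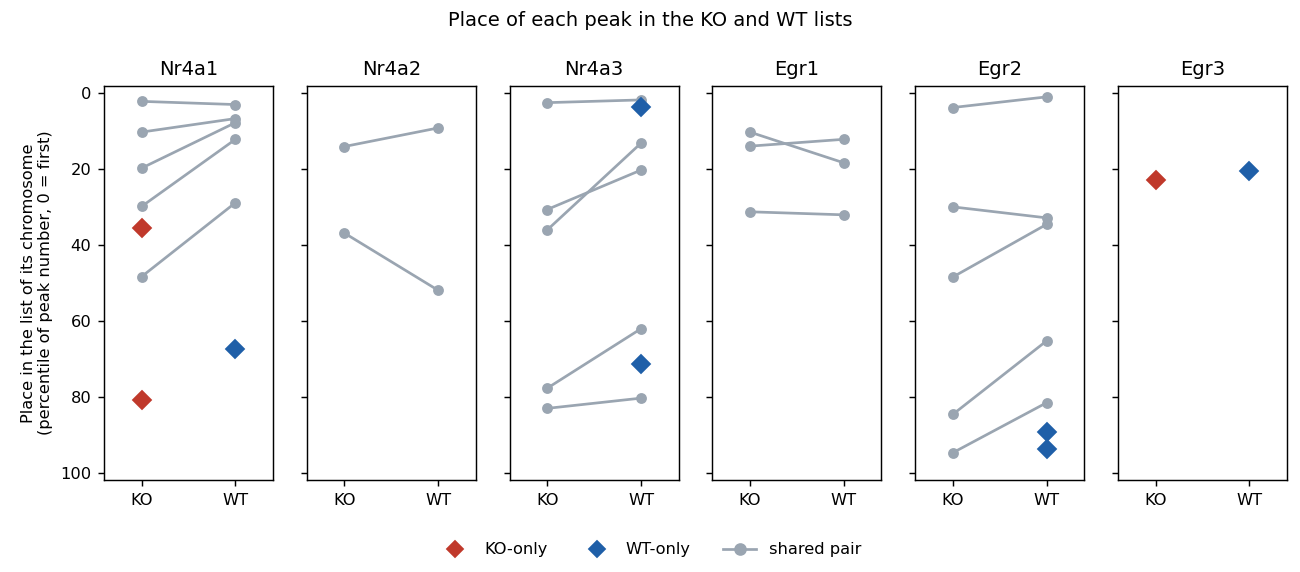
Place of each peak in the list of its chromosome (vertical axis, percentile of peak number, 0 is first) with KO on the left and WT on the right of each panel. Grey lines join shared pairs, red diamonds are KO-only and blue diamonds WT-only peaks; the Nr4a3 start peak is the blue diamond at 3.6, near the top, and the Egr3 diamonds lie at 22.8 (KO) and 20.5 (WT).

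Other genes of the pathway were counted by the same rule. AP-1 genes, which are induced by the same signals, comprised 9 genes with 25 shared pairs, 8 peaks in the KO list alone and 6 in the WT list alone, and a shared share of 75.8% of KO and 80.6% of WT peaks. No AP-1 gene had a surplus of 2 in either direction. At 22 other immediate early genes 33 peaks were KO-only and 30 WT-only, with more KO-only peaks at 9 genes and more WT-only peaks at 7. Among them Klf4, a zinc-finger factor that restrains proliferation, had 3 KO-only against 0 WT-only peaks. Dusp4, a MAP kinase phosphatase, had 5 KO-only against 1 WT-only peak, and Csrnp1 had 3 KO-only and 1 WT-only. Btg1, an antiproliferative gene, had 1 KO-only against 6 WT-only peaks. Dusp6, a phosphatase of ERK, and Tnfaip3, an inhibitor of NF-kB signalling, both showed 1 KO-only and 3 WT-only peaks. At the Nr4a and Egr genes 3 peaks were KO-only and 6 WT-only, a KO-only share of 33.3%, against 57.1% for the AP-1 genes, 52.4% for the other immediate early genes and 45.4% over all genes. With 9 peaks and no values per sample this difference was not tested. Under some of the alternative rules given at the end, KO-only and WT-only peaks of the 6 genes were equal in number, and under the others WT-only peaks were more. The median difference per gene (KO-only minus WT-only) was 0 for the Nr4a and Egr genes, in both of these lists and over all genes.

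Over 18 genes upstream of the Nr4a and Egr genes, 33 peaks were KO-only and 27 WT-only. Srf, which encodes the factor of the CArG box, had 0 KO-only, 1 WT-only, and 1 peak in both lists, and Creb1, which encodes a factor of the cAMP response element, had 1 KO-only, 3 WT-only, and 4 peaks in both lists. Hdac7, a class IIa deacetylase that represses Nr4a1 with MEF2 in thymocytes, had 2 KO-only, 0 WT-only, and 4 peaks in both lists. Elk3, an ETS partner of SRF, had 5 KO-only, 2 WT-only, and 7 peaks in both lists. The calcium-dependent factor gene Nfatc2 had 5 KO-only, 0 WT-only, and 8 peaks in both lists. Among 7 partners and corepressors, KO-only peaks outnumbered WT-only peaks at 4 genes and WT-only peaks outnumbered KO-only peaks at 0, with a median difference per gene of 1. Nab1 and Nab2 encode corepressors that bind Egr proteins, with 2 KO-only peaks and 1 WT-only peak at either gene and 7 shared pairs at Nab1 and 1 at Nab2. Rxra, which encodes a dimer partner of Nr4a1 and Nr4a2, had 1 KO-only, 1 WT-only, and 2 peaks in both lists. At 16 genes known as regulated by Egr or Nr4a factors in T cells 32 peaks were KO-only and 29 WT-only, beside 91 shared pairs. Of these, the gene of Helios, Ikzf2, had 7 KO-only against 4 WT-only peaks, the death ligand gene Fasl 4 KO-only and 2 WT-only, and the ubiquitin ligase gene Cblb 2 KO-only and 4 WT-only. Egr4, the remaining Egr gene, had 1 shared peak, and Wt1, which encodes a factor with related zinc fingers, had none in either list.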

How the data were processed

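ATAC-seq peaks of Treg cells were deposited as 1 list per group (KO and WT, 3 samples each). Per the submitters' processing notes, HOMER 4.10.1 and HISAT2 2.1.0 were among the tools, with build mm10; SAMtools 1.3, Trim Galore 0.4.2 with cutadapt 1.12, deepTools and FastQC are also named. Roles of the tools, peak thresholds, transposase shifts and the way samples were joined are not stated there. As deposited by the authors, the score column holds 1 throughout and gives no height. Depth is unknown.

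From the lists, overlaps, gene assignment and places were computed in Python 3.11.15 (pandas 2.3.3, scipy 1.17.1, numpy 2.4.6; matplotlib 3.10.9 for figures). Genes and promoter windows came from RefSeq tables of GRCm38.p6, with 21900 protein-coding genes. A midpoint held by several genes went to a member first and otherwise to the shortest gene. With 1 list per group nothing was tested and p-values are absent. On 800 simulated peaks the overlap code and bedtools 2.31.1 gave 0 differences, and the assignment gave 0 against a plain search. The 6 genes and the gene lists were chosen with earlier results of these data known. Named were the 6 genes, genes holding or next to their peaks, Egr4, Nab1, Nab2, Rxra, Srf, Hdac7, and in every list up to 3 genes per direction whose specific peaks differ by 2 or more; some genes that this rule names are not reported here. The 5% and 1 kb limits of the rank and start counts were chosen after the peaks were seen. The promoter windows were searched for 13 motifs on both strands; the TGACG, CArG and ETS matches were singled out, and the limits of 4 cores and 26 CpGs set, after the matches in the Nr4a and Egr2 windows were seen. Alternatives changed the overlap rule, the part of the list, the assignment and the percentile. The promoter windows of Egr1 and Egr3 were not analysed here.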

Additional observations from a re-analysis of the deposited data

How the results depend on the processing

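Over 14 results, 98 alternative values were computed. Of these, 77 stayed within 1.5 times the reported count or inside its interval, and 21 did not. For the median percentiles the interval is the range between the quartiles of the peaks. A change of direction could appear only in the differences at Nr4a1, Nr4a3 and Egr2, and 0 appeared there. Counts, shares and percentiles have no direction, and the reported difference at the other genes was 0. Where a gap of up to 500 bp counted as shared, KO-only peaks of the 6 genes numbered 0, the shared share of the KO list was 100%, and the difference (KO-only minus WT-only) at Nr4a1 was 0. With every peak within 100 kb counted, 8 peaks were KO-only and 14 WT-only beside 56 shared pairs, and the difference at Egr1 was -3. Within 10 kb the 6 genes had 13 shared pairs, 3 KO-only and 3 WT-only peaks, and the difference was 0 at Egr2 and -1 at Nr4a3. In the first 50% of each list KO-only and WT-only peaks numbered 2 each, with 0 at Egr2 and -1 at Nr4a3. Where noncoding genes took peaks, KO-only and WT-only peaks numbered 3 each, again with 0 at Egr2 and -1 at Nr4a3. The surplus of WT-only peaks over the 6 genes together was thus absent under these settings. With the WT list shortened the difference was 0 at Egr2, and by the nearest start it was 2 at Nr4a1. Under the 8 alternatives that apply to it, the difference at Nr4a3 was -2 or -1. By their construction the rules on the part of the list and on the assignment add or remove peaks. The 500 bp gap keeps the peaks and counts more of them as shared. A rule that asked for 50% of the peak to be covered also keeps the peaks and counts fewer as shared. Under it 4 peaks of the 6 genes were KO-only and 7 WT-only, beside 19 shared in each list. No paired analysis was possible because each group has 1 list for its 3 samples, and for the same reason no sample could be left out. Unknown depth limits every KO-only or WT-only call.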
